A study of Mus musculus with 30 samples.

Results

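The genes described here encode the proteins of the cytosolic ribosome in the regenerating mouse digit tip. They were taken by name: every row of the deposited tables whose symbol is Rpl or Rps followed by a number and at most one of the letters a, x or y, together with Rpsa, Rplp0, Rplp1 and Rplp2. This rule uses no measured value. It found 76 of 20321 genes, 46 of the large subunit and 30 of the small subunit. RNA came from 30 digits of adult male C57Bl/6 mice, 9 to 10 weeks old, whose hindlimb digit 3 was cut through the terminal phalanx (P3) so that the bone could regrow. Digits were collected from 3 mice at 5 times within the first day (0 h, then 3 h, 6 h, 12 h and 24 h), and afterwards from 3 mice at 3 d, 6 at 7 d, 3 at 14 d and 3 at 21 d. The digits were of the right foot in 27 libraries and of the left in 3 (7 d replicates 3, 4 and 6). Identifiers in the titles recur, 4 of them over 9 libraries, and 0 h replicate 3 and 12 h replicate 2 share an identifier and a date. That the libraries are of separate mice therefore rests on the study's methods only. All mice were amputated, so that 0 h is the only reference and no unamputated group enters. Replicate numbers below only name libraries in accession order. The tissue is a mixture of epidermis, nail, bone, marrow and connective tissue, in which fewer cells of a type and less RNA per cell cannot be told apart.

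Total expected counts ran from 3167625 to 16277816 per library. Dates in the sample titles, whose meaning the labels do not state, fall into July and August (16 libraries, the earlier campaign) and November to January (14 libraries, the later campaign). All libraries at 3 h and 12 h are of the earlier campaign and all at 21 d of the later, so that at these times campaign and time cannot be told apart. The other 6 times hold both. A library at 24 h (replicate 3, later campaign) and 3 of the 4 later libraries at 7 d stood apart from the rest in these genes. The counts over the time course are also given without 24 h replicate 3, and without all 4 later libraries at 7 d. The counts between campaigns and of the interaction are also given without 24 h replicate 3, but not without those 4. Keratinocyte markers were present in every library, with all 15 of them above 0 at 0 h and a summed level of 70818 to 76724 TPM, the transcript abundance that RSEM scales to a fixed total in each library.

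Ribosomal proteins assemble with ribosomal RNA into a large subunit, which joins amino acids, and a small subunit, which reads the messenger RNA. Cells make these proteins in nearly equal numbers, and their mRNAs are among the most abundant and the most evenly expressed in any tissue. Much of their control is at translation: many of these mRNAs begin with a run of pyrimidines, the 5′ terminal oligopyrimidine (TOP) tract, through which the growth pathway of mTOR admits or holds back the whole class. Ribosome production can therefore be turned up or down with no matching shift of these mRNA levels.

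The first bases of the transcripts that the tables list are shown for 8 of the genes described below, because the TOP tract is the sequence that this class shares and the naming rule did not use. Sequences and coordinates are those of GENCODE M21 on GRCm38, read in the direction of the transcript. Capitals mark a tract, taken as a C at the first base followed by at least 4 bases that are each C or T.
Rps24 (chr14:24490718-24490741, plus strand): CTCTTTTCCTCCTCTCCagctccg
Rpl37 (chr15:5116645-5116668, plus strand): CTCTTCCggtctctttggcctcgc
Rps21 (chr2:180257377-180257400, plus strand): CCCTCCTgcccaatagtgctgcgg
Rpl37a (chr1:72711290-72711313, plus strand): CTCTTCggacttgggcttgggttc
Rps15a (chr7:118115233-118115256, minus strand): CTTTCCacagccaccatggtgcga
Rplp2 (chr7:141447370-141447393, plus strand): gggagctgtggagccgagtagcat
Rps28 (chr17:33824539-33824562, minus strand): ctcgcgagagcgaaagtgaggcgt
Rps27a (chr11:29548086-29548109, minus strand): aggaaagcctctcttaatcgcatc
The first 5 open with a tract of 6 to 17 bases, and the last 3 do not. Of the 69 ribosomal protein genes with a single matched transcript, 10 (14.5%) had a tract at the first annotated base, against 2.1% of 16095 other genes and 5.56% of 72 mitochondrial ribosomal protein genes. Within the first 50 bases, a C followed by at least 5 bases of C or T stood in 46 of the 69 (66.7%), against 33.5% of the other genes and 31.9% of the mitochondrial ones. Only the strand of the transcript was searched, and an annotated first base need not be the start that the tissue uses.

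The ribosomal protein genes spanned a wide range of levels, and 28 of them were among the 100 genes with the highest mean TPM. Rps16 was highest, with a mean of 5704 TPM over the 30 libraries and a range of 3903 to 10681. Rps12, a protein of the head of the small subunit, followed at 4526 TPM. The next were Rpl19 at 3962 TPM, Rpl11, which also binds Mdm2 when ribosome assembly fails, at 3306 TPM, and Rpl26, near the exit of the peptide tunnel, at 3116 TPM. TPM is a level per transcript length, so that it can be compared between genes.

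At the low end, the values concern how the genes were counted as much as their level. Rps27, a zinc-binding protein of the small subunit, was listed at 0 in 28 libraries and at 69.9 and 69.6 TPM in 7 d replicates 3 and 5. It is the only one of the 76 genes that did not pass the filter on low counts, and the other 75 were tested. The row named Rpl24 had a mean of 15.8 TPM, but its transcript of 4916 bases belongs to another gene, Zbtb11, in GENCODE M21. Its values therefore cannot be read as those of Rpl24. Unless stated otherwise, the row is still counted among the 76 genes, the 75 tested and the 46 of the large subunit. Rps15a (64.9 TPM) and Rps20 (608.8 TPM) are quantified on transcripts of 5127 and 3697 bases. The median over the genes without the Rpl24 row was far lower, at 750 bases. Rpl22, which also binds small viral and nuclear RNAs, had 243.6 TPM and Rps25 352.5 TPM.

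The genes differ from most others in length and in how their reads were shared. The median transcript length over all genes was 2693 bases, and 56 of the 76 ribosomal protein genes, against 8.71% of all genes, lay under 1000 bases. Ribosomal protein genes have many near-identical pseudogenes, and none is a row of the tables under such a name. Of the expected counts of the 76 genes, 46.4% were whole numbers, against 78.1% over all genes, where whole means within 0.005 of a whole number. Zeros are always whole. Among counts of at least 100, 45.8% were whole in the ribosomal protein genes and 61.9% in the others. RSEM gives a fractional count where a read is shared between rows, and a level that depends on such sharing is uncertain.

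The levels of the 76 genes were also summed in each library. Their summed TPM lay between 8.91% and 12.4% of the total in 29 libraries and reached 17.5% in 24 h replicate 3. At 0 h the values were 10.6%, 9.52% and 10.6%, a mean of 10.2% ± 0.620 (SD, n = 3). At 3 h they were 10.5%, 12.2% and 11.7%, a mean of 11.5% ± 0.841 (SD, n = 3). The groups overlapped. At 21 d, where the mean was lowest, the values were 9.16%, 10.2% and 9.12%. At 24 h the libraries held 9.80%, 11.1% and 17.5%, and the mean of 12.8% ± 4.13 (SD, n = 3) became 10.4% without replicate 3. The highest time mean was thus 1.35 times the lowest with all libraries and 1.21 times without that library. In the share of counts, 24 h replicate 3 held 8.16% and the others 3.53% to 5.34%.

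**Figure D1:**
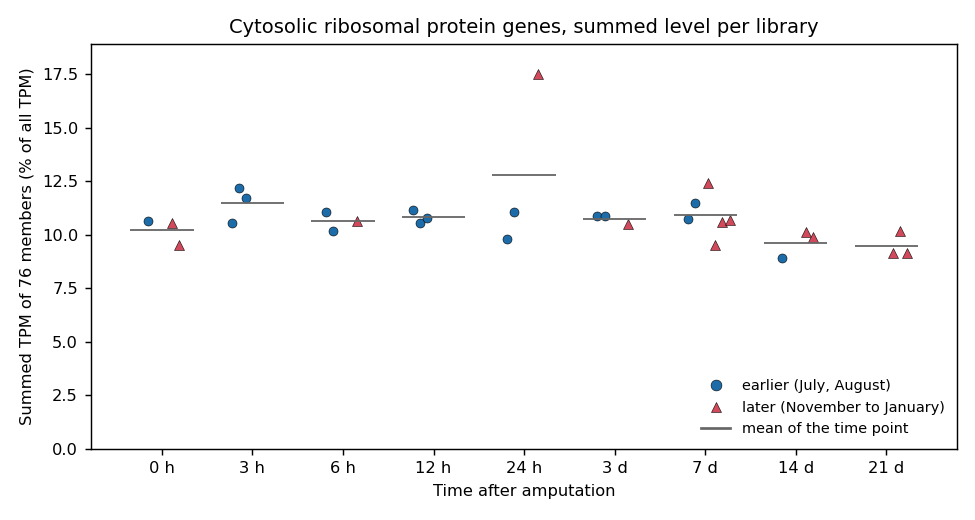
Summed TPM of the 76 cytosolic ribosomal protein genes, as a percent of all TPM, in each of the 30 libraries by time after amputation; circles are libraries of the earlier campaign, triangles of the later, and bars the mean of a time point. The libraries lie between 8.91% and 12.4%, except 24 h replicate 3 at 17.5%.

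With all 30 libraries, the genes also moved together more than those of the mitochondrial ribosome did. The median over 75 genes of the standard deviation of log2(TPM + 1) was 0.304. It was 0.259 once each library's median over all 76 genes was taken out. For 74 mitochondrial ribosomal protein genes these medians were 0.397 and 0.385. This is a description, since the mitochondrial genes have lower levels and so larger counting error. The library median that was taken out was 10.8 in 24 h replicate 3 and 9.79 to 10.4 in the others. The standard deviations without that library are not given, so that its part in this comparison is not known. Among the genes whose relative level varied most were Rplp2, Rpl38, the Rpl24 row, Rpl13 and Rpl29, with standard deviations of 0.836, 0.481, 0.479, 0.471 and 0.458.

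Over the 9 time points, 8 of the 75 ribosomal protein genes changed in edgeR's quasi-likelihood F-test with Benjamini-Hochberg adjustment at 0.05, against 9.01% of all 13793 genes tested. At an unadjusted p under 0.05 stood 30 of the 75, against 24.1% of all genes. The 8 included Rpl37a, Rpl30, Rpl34, Rpl37 and Rplp2 of the large subunit and Rps24 and Rps27a of the small. In 7 of them the fitted level was highest at 24 h or 3 h, and in Rplp2 at 7 d. At a threshold of 0.01 the same test called 0.

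Rpl30, a large subunit protein that in yeast binds its own transcript, had 450.0, 365.8 and 677.7 TPM at 0 h and 735.4, 870.2 and 801.3 TPM at 3 h. Every library at 3 h was above every library at 0 h. At 7 d the earlier libraries held 668.6 and 690.2 TPM and the later ones 284.8, 339.6, 338.8 and 282.5. The 2 sets at 7 d did not overlap, and the single earlier library at 0 h was as high as the earlier ones at 7 d. The fitted range over the time course was 1.007 on the log2 scale (edgeR adjusted p = 0.0152), and the log2 difference of 3 h from 0 h was 0.78 (SE 0.237).

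Rpl37a and Rpl37, both zinc-binding proteins of the large subunit, showed the same split. Rpl37 held 521.3, 467.2 and 744.2 TPM at 0 h and 859.6, 1122 and 1559 TPM at 3 h, again without overlap. Its range of 1.18 (log2, edgeR adjusted p = 0.0225) was the distance of 3 h from 0 h, with a standard error of 0.311. For Rpl37a the values were 585.6, 424.8 and 750.1 TPM at 0 h and 781.2, 788.8 and 1050 TPM at 24 h, and the range was 0.97 (log2, edgeR adjusted p = 0.0120). In both genes the earlier library at 0 h was the highest of the 3, and all libraries at 3 h are of the earlier campaign.

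Rps24, Rpl34 and Rps27a were highest at 24 h, where 24 h replicate 3 stood above the other two libraries. Rps24, a small subunit protein mutated in some families with Diamond-Blackfan anaemia, had 1144, 1337 and 2387 TPM at 24 h and 1033, 836.3 and 1197 TPM at 0 h. Rpl34 had 694.4, 822.5 and 1587 TPM at 24 h and 617.6, 534.9 and 735.7 TPM at 0 h. Rps27a, which is made as a fusion with ubiquitin, had 2316, 2549 and 5755 TPM at 24 h and 2312, 2012 and 2714 TPM at 0 h. In each, replicate 3 was far above the other two, which lay within or close to the range at 0 h. Rps27a was lowest at 7 d, with 2260 and 2710 TPM in the earlier libraries and 1405, 1481, 1137 and 1047 TPM in the later. The adjusted p over the time course (edgeR) was 0.0241 for Rps24, 0.0175 for Rpl34 and 0.0360 for Rps27a, and without 24 h replicate 3 all 3 were still called, at 0.0355, 0.0115 and 0.0376.

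These calls depended on which libraries and covariates entered. Without 24 h replicate 3, 8 of the 75 genes were called (9.12% of all genes), of which 6 were among the former 8. Rpl37 was among those that dropped out, and Rpl13 and Rps18 came in. Without the 4 later libraries at 7 d, 4 were called (11.6% of all genes), among them Rpl30, Rpl37 and Rpl37a, and Rplp2 had an adjusted p of 0.547. With campaign as a covariate, 28 were called (12.2% of all genes), and these included all of the 8. With an offset that took out each library's trend over transcript length, 2 were called (9.77% of all genes), Rplp2 and Rpl13.

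**Figure D2:**
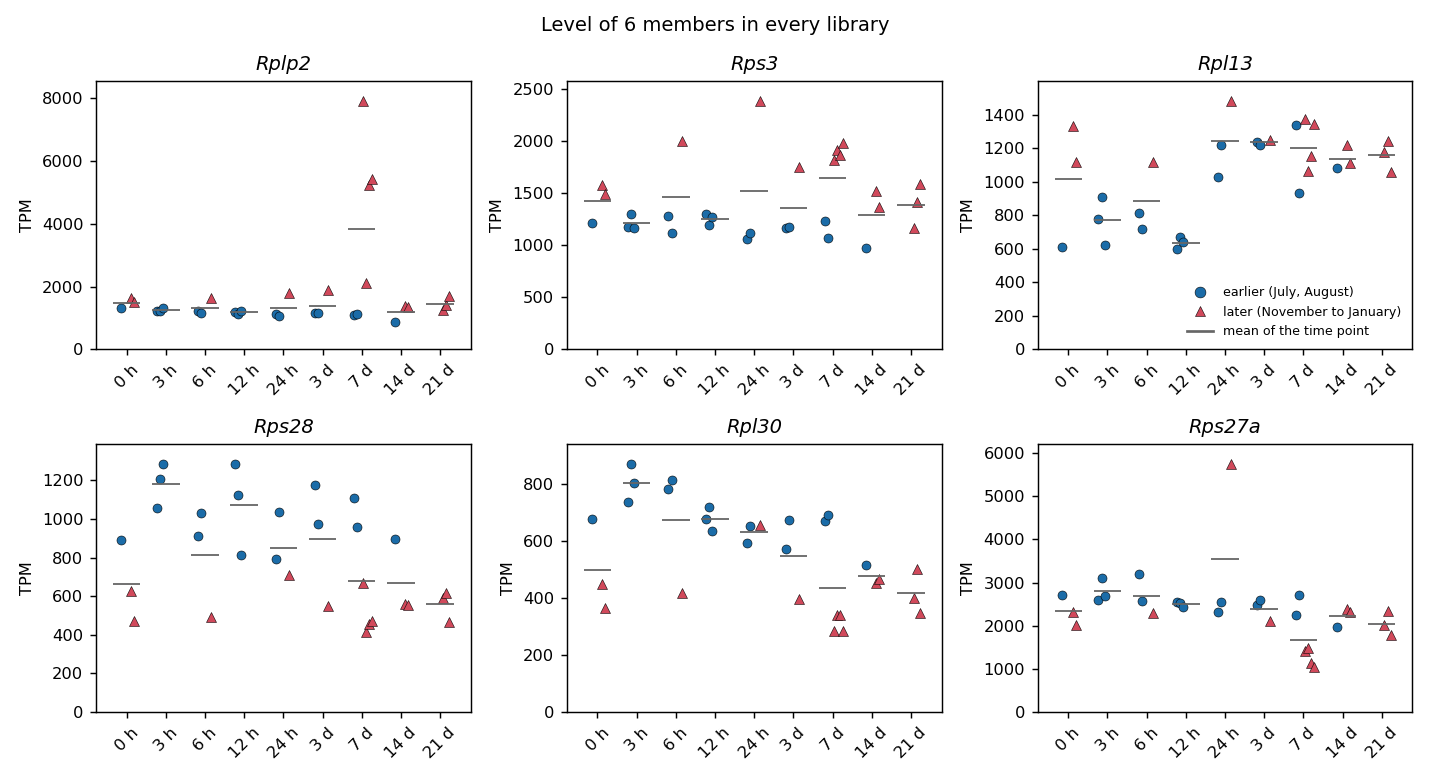
TPM of Rplp2, Rps3, Rpl13, Rps28, Rpl30 and Rps27a in each of the 30 libraries by time after amputation; circles are libraries of the earlier campaign, triangles of the later, and bars the mean of a time point. Rplp2 is highest in 3 later libraries at 7 d (5233 to 7901 TPM), Rps27a in 24 h replicate 3 (5755 TPM), and Rps28 separates the campaigns, while Rps3 spans 980.0 to 1305 TPM in the earlier libraries and 1167 to 2390 TPM in the later.

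No single time differed from 0 h for any ribosomal protein gene at an adjusted p under 0.05 in edgeR's quasi-likelihood test. The comparisons share the 0 h libraries. At 3 h, 0 of 75 were called against 0.254% of all genes, and 66 of the 75 fitted differences were positive, with a median of 0.29 on the log2 scale and 18 at an unadjusted p under 0.05. Over all genes that share was 10.9% and 48.7% of differences were positive. At 24 h, 0 of 75 were called against 0.493% of all genes, 71 were positive, the median was 0.46, and 33 had an unadjusted p under 0.05, where over all genes 50.8% were positive and 9.41% had such a p. Without 24 h replicate 3 the median at 24 h was 0.00, 38 were positive and 2 had an unadjusted p under 0.05. At 3 h the median without it was again 0.29, and the genes at an unadjusted p under 0.05 went from 18 to 27.

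The other 6 times lay closer to 0 h. The count of called genes was 0 of 75 at each, against 0.189% of all genes at 6 h, 0.167% at 12 h, 0.551% at 3 d, 2.34% at 7 d, 1.61% at 14 d and 1.94% at 21 d. The medians were 0.06 at 6 h, -0.03 at 12 h, 0.00 at 3 d, 0.00 at 7 d, -0.09 at 14 d and -0.01 at 21 d, and at most 5 of the genes had an unadjusted p under 0.05 at any of them. The spread of the 75 differences was widest at 7 d, from -0.64 for Rpl29 to 1.46 for Rplp2. With campaign as a covariate, all 75 differences at 3 h were positive, with a median of 0.49, 39 at an unadjusted p under 0.05 and 0 called. All libraries at 3 h are of the earlier campaign, so that this fit takes the campaign difference from the other times. The median of that difference over the 75 genes was 0.28, and 0.08 without 24 h replicate 3. The median at 3 h from this fit without that library is not given. DESeq2's test called 2 as higher at 3 h (0.566% of all genes), 1 at 24 h (0.776%) and 1 at 7 d (3.28%), none as lower, and none at the other 5 times.

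**Figure D3:**
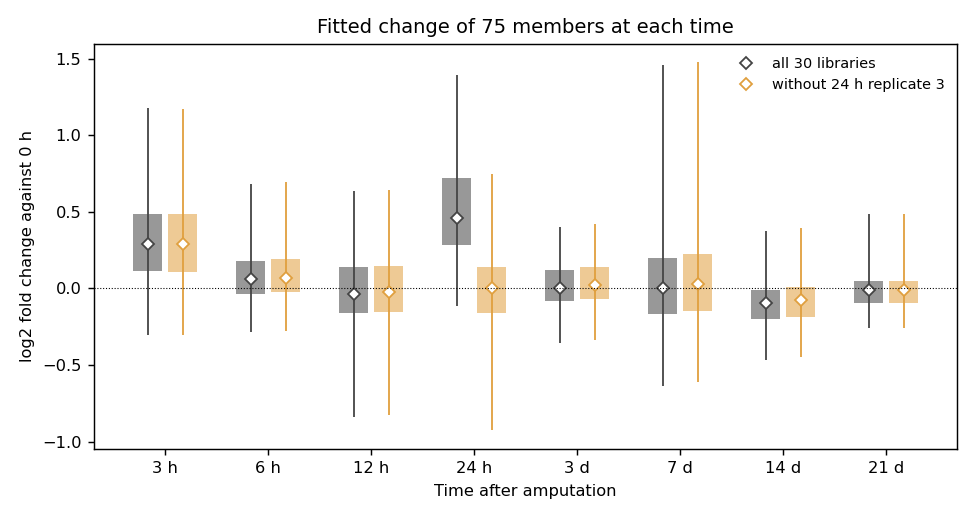
Fitted log2 fold change against 0 h of the 75 tested ribosomal protein genes at each time, in grey with all 30 libraries and in orange without 24 h replicate 3; diamonds are medians, boxes the middle 50 percent and lines the full range of genes. At 24 h the median moves from 0.46 to 0.00 when that library is left out, and at 3 h it stays at 0.29.

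At single times, the genes at the ends of the range were these. Rps28, a small subunit protein at the mRNA exit, had a log2 difference of 0.97 (SE 0.30) at 3 h and 0.56 at 12 h, with 626.8, 472.5 and 888.9 TPM at 0 h against 1055, 1205 and 1282 TPM at 3 h. The libraries of these times did not overlap, and at 12 h 1 of the 3, with 813.9 TPM, fell within the 0 h range. The 888.9 TPM at 0 h is the single earlier library there, and all libraries at 3 h and 12 h are of the earlier campaign. Within 0 h, Rps28 was lower in the later libraries (-0.71 on the log2 scale, later minus earlier). Rpl41, the smallest ribosomal protein, had 0.49 at 6 h, 0.37 at 14 d and 0.42 at 21 d, and Rps25 0.68 (SE 0.288) at 6 h. Rps25 too was lower in the later libraries within 0 h (-0.66, later minus earlier). Rps21 had 1.40 (SE 0.439) at 24 h, with 832.0, 1275 and 3839 TPM, and Rps15a 1.22 (SE 0.348), with 49.4, 65.0 and 194.2 TPM. In both, 2 of the 3 libraries lay close to those at 0 h, and without replicate 3 the differences were 0.12 and 0.021.

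Rps29, another small zinc-binding protein, had 0.32 at 14 d, and Rps2, near the mRNA entry, had 0.48 at 21 d. Among the lowest differences were -0.36 for Rpl19 and -0.30 for Rpl12 at 3 d, -0.47 for Rpl19 and -0.42 for Rpl21 at 14 d, and -0.26 for Rps13 at 21 d. At 24 h Rpl21 was lowest at -0.11 and Rpl8 next at -0.02. None of these differences passed the test. In the later campaign alone, edgeR called 39 of 75 at 24 h (1.92% of all genes), where replicate 3 is the single library, and 2 of 75 at 7 d (2.79% of all genes).

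The 4 later libraries at 7 d, all dated 18 November, set Rplp2 apart. Replicates 3, 4 and 6 are of the left foot and replicate 5 of the right. Rplp2 is one of the acidic stalk proteins through which the large subunit recruits its GTPase factors. Its level was 7901, 5233 and 5427 TPM in 7 d replicates 3, 5 and 6, 2105 TPM in replicate 4 of the same date, and 1102 and 1142 TPM in the earlier libraries at 7 d. In the 24 libraries of the other times it lay between 868.3 and 1889 TPM, so that all 4 later libraries at 7 d were above every library of another time. The fitted log2 difference of 7 d from 0 h was 1.46 (SE 0.492) with all libraries and -0.61 without the 4. Without the 4, 7 d holds only earlier libraries, while 0 h holds 1 earlier and 2 later. Within 0 h, Rplp2 was higher in the later libraries, by 0.25 on the log2 scale. The other stalk proteins did not follow: Rplp1 had 949.2, 1087 and 987.6 TPM in replicates 3, 5 and 6, below all but 1 of the other libraries, and Rplp0, the base of the stalk, had 2215, 2417 and 2439 TPM.

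Other genes went with Rplp2 in the same 3 libraries, in both directions. Rpl31 held 2064, 1364 and 1467 TPM in replicates 3, 5 and 6 at 7 d and 643.8 to 1204 TPM in all other libraries. Rpl38, which in mice is needed for normal patterning of the vertebrae, held 1859, 1490 and 1614 TPM there and 560.5 to 994.5 TPM elsewhere. On the low side, Rpl29, a cell-surface and ribosomal protein, held 162.3, 167.2 and 120.2 TPM there and 198.2 to 578.9 TPM elsewhere. These 3 libraries had 1.25% to 1.91% of TPM in mitochondrially encoded genes, against 2.73% to 5.59% in all others. Replicate 3 also had the fewest genes detected, 12177. Of the 76 genes, 12 were highest and 12 lowest of all libraries in replicate 3, with no share over all genes to set beside them. Markers of keratinocytes summed to 66649, 65440 and 59932 TPM in the 3, above the 48131 to 54372 TPM of the other libraries at 7 d. Fibroblast and bone markers summed to 7353, 7712 and 7871 TPM, below the 9478 to 14498 TPM of the others, and endothelial markers to 155.0, 172.0 and 159.2 TPM, below 195.9 to 297.9 TPM. The sums of myeloid, neutrophil, proliferation, muscle and erythroid markers overlapped those of the other libraries at 7 d. Myeloid markers, for example, summed to 317, 336 and 276 TPM in the 3 and to 323 TPM in replicate 4, against 949 and 1116 TPM in the earlier libraries. The part of these features in the result was not tested.

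In 24 h replicate 3, 42 of the 76 genes were higher than in every other library and none was lower. The same share over all genes is not given, so that this count cannot be read as particular to these genes. The level was above the mean of the other two libraries at 24 h in 65 genes, with a median ratio of 1.58. The excess was unequal: Rps21 had 3839 TPM against 1348 at most elsewhere, Rps27a 5755 TPM against 3196 at most, and Rpl11 7217 TPM against 3953 at most. Rpl28, Rpl29, Rps28 and the Rpl24 row were among those not above that mean. Other genes with transcripts under 1000 bases together held 25.4% of TPM in this library and 14.1% to 21.6% in the rest. Proliferation markers summed to 344.5 TPM in it and to 582.4 and 715.1 TPM in the other two, and fibroblast and bone markers to 1454 TPM against 3217 and 4098 TPM. Keratinocyte markers summed to 48958 TPM, against 50010 and 57018 TPM. The part of transcript length and of these markers in the result was not tested.

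Between the campaigns, with time in the fit, 39 of the 75 genes differed (edgeR's quasi-likelihood test, Benjamini-Hochberg adjusted p under 0.05), 34 higher and 5 lower in the later libraries. Of all genes tested, 24.1% differed, 13.3% higher and 10.8% lower. The median log2 difference of the ribosomal protein genes was 0.28, against -0.03 for all genes. In the large subunit 24 of 46 were higher and 4 lower, with a median of 0.32, and in the small subunit 10 of 29 were higher and 1 lower, with a median of 0.19. Without 24 h replicate 3, 26 were higher and 20 lower, with a median of 0.08, against 22.8% of all genes. With the length offsets, 25 were higher and 19 lower, with a median of 0.04, against 22.2% of all genes. The balance of directions thus moved toward even both without that library and with the offsets. With and without the library, 26 higher and 5 lower were called in the same direction.

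**Figure D4:**
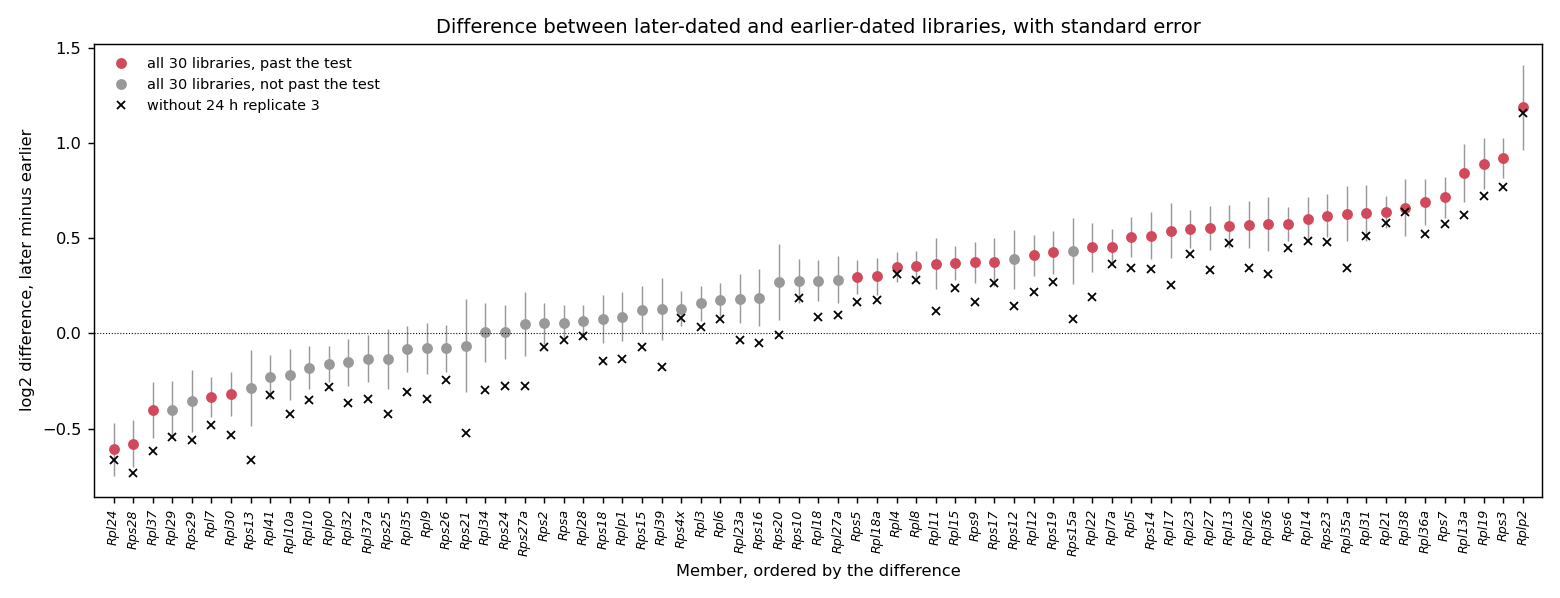
Fitted log2 difference of later minus earlier libraries for 73 of the 75 tested ribosomal protein genes, ordered by size, with standard errors; red points passed the test, grey points did not, and crosses are the fit without 24 h replicate 3. The differences run from -0.61 for the Rpl24 row to 1.19 for Rplp2, and leaving out that library lowers each of them.

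Rps28 had a log2 difference of -0.58 between the campaigns (SE 0.123, edgeR adjusted p = 0.000789), with 793.9 to 1286 TPM in the earlier libraries and 414.4 to 711.9 TPM in the later. It was lower in the later libraries at all 6 times, and the campaigns did not overlap.

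Complete separation in TPM was found in 4 of the 75 genes, among them Rps28, Rplp0 and the Rpl24 row on the low side, against 1.1% of all genes. Rplp0, often used to scale PCR measurements, had 2998 to 4122 TPM in the earlier libraries and 2115 to 2983 TPM in the later. Its fitted difference on counts was -0.16 and did not pass the test (edgeR adjusted p = 0.250), so that the separation in TPM was not matched by the test of counts. Of the 75 genes, 15 were higher in TPM in the later libraries at all 6 times, and 6, the Rpl24 row included, were lower at all 6. The same shares over all genes are not given, and most of these times hold only a single library of a campaign. The counts therefore cannot be read as particular to these genes.

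Rps3, which lines the entry of the mRNA and also acts in DNA repair, was 0.92 higher (SE 0.106), Rpl19 0.89 (SE 0.134), and Rpl13a, whose free form can silence inflammatory mRNAs, 0.84 (SE 0.152). Rplp2 was 1.19 higher (SE 0.223), and its within-time difference was 2.05 at 7 d and 0.25 to 0.72 at the other 5 times. On the low side, Rpl37 differed by -0.40 (SE 0.149, edgeR adjusted p = 0.0478) and Rpl30 by -0.32 (SE 0.114). Rpl29 and Rps29, at -0.40 and -0.36, did not pass with all libraries (edgeR adjusted p = 0.0501 and 0.116) and did without 24 h replicate 3 (0.00939 and 0.00932). Over 74 of the genes, the Rpl24 row left out, the campaign difference had a Pearson correlation of 0.23 with log2 transcript length and 0.23 with log2 mean TPM, and over 68 genes one of -0.03 with GC content. These are descriptions across genes that share their libraries. The 10 genes with a TOP tract at the first base had a median difference of 0.04 and the 58 without one 0.28.

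The proportion of the subunits also differed between dates. The summed TPM of large over small subunit genes was 1.37 to 1.45 in the 14 libraries of July and 1.38 and 1.43 in the 2 of August. In the 8 libraries of November it was 1.46 to 1.63, above all of these. It returned to 1.38 and 1.39 in the libraries at 14 d dated 1 December and to 1.37 and 1.39 in those at 21 d dated 8 January, while 21 d replicate 3, dated 2 December, had 1.57 and 24 h replicate 3, dated 3 December, 1.32. Within the later campaign the ratio thus differed more between dates than it did within the earlier one. These ratios include Rplp2, which held 7901 TPM in 7 d replicate 3, dated November, against a median of 1168 TPM in July. In that library the large subunit genes held 7.54% of TPM and the small 4.87%. With Rplp2 taken out, its ratio falls below the highest of July. November therefore does not lie wholly above July without Rplp2. The ratio without Rplp2 is not given for the other libraries.

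Rpl13, a large subunit protein, differed within the earlier campaign between dates that also hold different times. In the 9 libraries dated 14 to 20 July, which hold 0 h to 12 h, it had 597.6 to 911.1 TPM, with a median of 671.9. In the 7 dated 23 July to August, which hold 24 h to 14 d, it had 931.0 to 1337 TPM, with a median of 1216. The 2 sets did not overlap. In the 14 later libraries it had 1055 to 1481 TPM, also at 0 h (1329 and 1115 TPM) and 6 h (1119 TPM). Time and date cannot be told apart within the earlier campaign. In the later campaign the libraries of 0 h and 6 h lay among those of later times. The part of time and of date in this difference was not tested. Rpl13 was among the lowest genes at 3 h, 6 h and 12 h against 0 h (-0.84 on the log2 scale at 12 h), and without 24 h replicate 3 it changed over the time course (edgeR adjusted p = 0.0420).

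**Figure D5:**
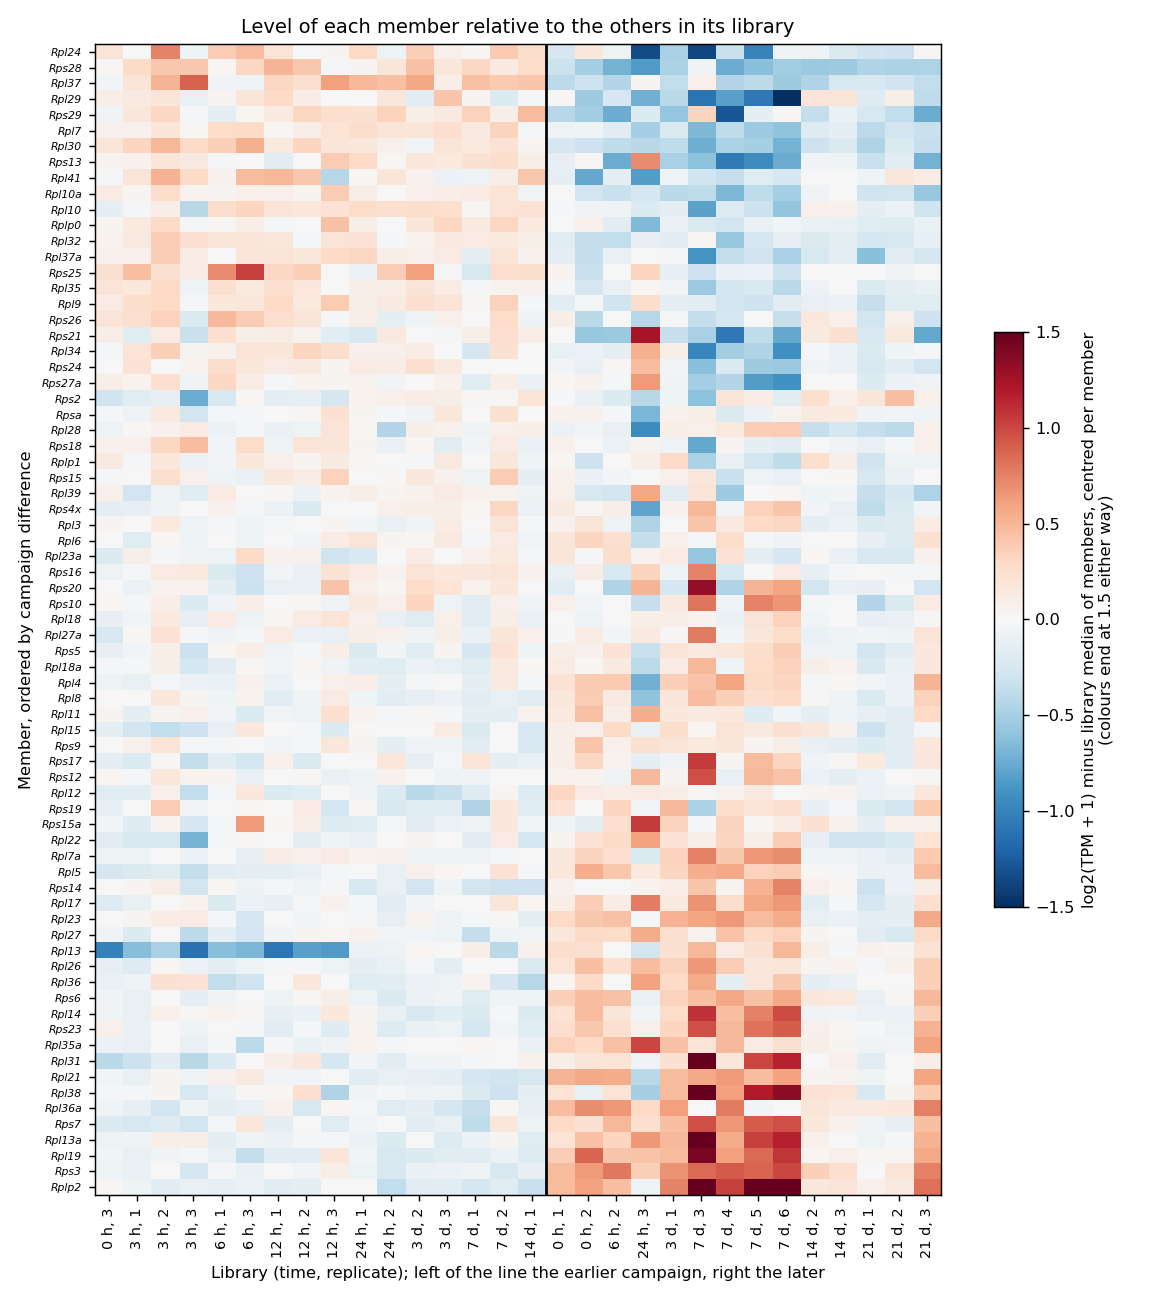
Level of 73 of the 75 tested genes relative to the others in its library. Values are log2(TPM + 1) minus the library's median over all 76 genes, centred per gene. Rows are ordered by the campaign difference, and columns are the 30 libraries. The line divides the earlier campaign (left) from the later (right). Rpl13 is low in the 9 libraries dated 14 to 20 July, and the strongest colours lie in 24 h replicate 3 and in 7 d replicates 3, 5 and 6.

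Whether the time course itself differed between the campaigns was tested in the 6 times that hold both. The interaction was called for 16 of the 75 genes in edgeR's quasi-likelihood test, against 0.883% of all genes. They were Rpl9, Rpl11, Rpl17, Rpl22, Rpl27, Rpl30, Rpl34, Rpl35, Rpl35a and Rplp1 of the large subunit and Rps9, Rps13, Rps15a, Rps21, Rps24 and Rps27a of the small. The largest were Rps21, Rps13 and Rps15a. Rps13, for example, differed by 1.16 (log2, later minus earlier) at 24 h and by -0.39 at 0 h, -0.84 at 6 h, -0.83 at 3 d and -1.43 at 7 d. The only later library at 24 h is replicate 3. Without it, 0 of 75 were called by edgeR (0.194% of all genes), 8 at an unadjusted p under 0.05, and with the length offsets 5 were called (0.633% of all genes).

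The average levels per time point that the authors deposited, scaled between libraries by the median of ratios, carry the same library. In them, 50 of the 76 genes were highest at 24 h, 20 at 3 h, 5 at 7 d and 1 at 6 h, and 19 of 76 (25%) spanned at least 2-fold between their highest and lowest time, against 25.2% of all genes. In plain means of TPM, computed from the same libraries, 36 genes were highest at 24 h, and 9 of 76 (11.8%) spanned 2-fold, against 26.5% of all genes. When 24 h replicate 3 was left out of these means, 5 genes were highest at 24 h, 31 at 3 h and 20 at 7 d, and 5 (6.58%) spanned 2-fold, among them Rpl37, Rplp2, Rps27 and Rps28.

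Other genes of protein synthesis were set beside these by their counts over the time course (edgeR, adjusted p under 0.05), to be read against the 9.01% of all genes. Of 25 translation factors whose mRNAs carry TOP tracts, 0 were called, and of 76 mitochondrial ribosomal protein genes 1 was, Mrpl20. Of 85 genes of ribosome biogenesis, 7 were called. Heatr1 and Utp20, of the particle that processes the ribosomal RNA precursor, and Mdn1, which strips assembly factors from the large subunit, had their highest mean at 6 h or 12 h. For Heatr1 the means were 11.3 TPM at 0 h, 23.2 TPM at 6 h and 9.76 TPM at 7 d, and its log2 difference of 6 h from 0 h, 1.0, did not pass the test (edgeR adjusted p = 0.138). Between the campaigns, 39 of the biogenesis genes were higher in the later libraries and 1 lower, 28 of the mitochondrial ribosomal genes were higher and 0 lower, and 14 of the translation factors were higher and 2 lower, to be read against the 13.3% of all genes higher and 10.8% lower. Without 24 h replicate 3 the counts were 40 and 2, 21 and 3, and 13 and 2, where 11.9% of all genes were higher.

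Among regulators of growth and of TOP mRNAs, 4 of 26 were called over the time course. Myc, which drives transcription for ribosome production, rose at 3 h by 1.27 (log2, edgeR adjusted p = 0.0151), from a mean of 50.4 TPM at 0 h to 110.9 TPM. Eif4ebp1, the translation repressor that mTOR inactivates, rose at 7 d by 1.1 (log2, edgeR adjusted p = 0.0191), from 29.2 to 64.4 TPM. Mycl and Ddit4, an mTOR inhibitor induced by stress, were called over the time course without passing against 0 h at any time. Of the ribosomal protein genes outside the naming rule, 2 of 8 tested were called, Rps27l and Rpl22l1, the paralogs of Rps27 and Rpl22. Rps27l had a mean of 92.2 TPM at 0 h and 203.9 TPM at 24 h (135.1 TPM without replicate 3), and its difference, 1.39 on the log2 scale, did not pass the test (edgeR adjusted p = 0.157).

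The lists of cell type markers ranged widely in how many of their genes were called. Of 15 fibroblast and bone markers, 12 were called over the time course, against 9.01% of all genes. Higher than at 0 h were 9 of the 15 at 14 d and 9 at 21 d. Of all genes, 1.61% and 1.94% were called at these times in either direction. Of the proliferation markers, 11 of 20 were called, and Ccna2 and Aurka fell at 3 h. The other lists gave 5 of 14 myeloid, 4 of 9 neutrophil, 3 of 5 erythroid, 2 of 15 keratinocyte, 1 of 10 endothelial and 0 of 6 muscle markers. The part of cell composition in the ribosomal protein levels was not tested.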

How the data were processed

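RNA of 30 digits was sequenced as poly(A)-selected single-end libraries. Per the labels and the study's methods, the authors aligned reads with Bowtie to Ensembl v75 transcripts and estimated expression with RSEM 1.2.3 (genome build mm10). The authors deposited expected counts per gene and library, not normalized, and TPM per gene and library, relative to all transcripts of that library. They also deposited a signal per time point, the average of TPM scaled by the median of ratios, which was used only for the time of the highest average and the fold between times. No column of another series was present (0).

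Expected counts were rounded and tested with edgeR 4.0.16 in R 4.3.3 (TMM, low counts filtered by filterByExpr with the time points as groups, quasi-likelihood tests, Benjamini-Hochberg adjustment over all genes tested at 0.05). Members are described on TPM with a pseudocount of 1 on the log2 scale. The campaign fit held time and campaign, and the interaction the 6 times with both. Length offsets were medians of other genes in 20 bins of transcript length. Total counts per library (3167625 to 16277816) set the counting error. The study's methods describe separate mice, although 4 identifiers in the titles recur, over 9 libraries, which were treated as separate mice. Library pairs differed by at least 10.3 chi-square per degree of freedom, so that none was counted as a duplicate. Alternatives were DESeq2 1.42.0, limma 3.58.1 on log2(TPM + 1), other scalings, filters and thresholds, and libraries left out. The statistics were tested on simulated data.

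The genes, lists and tests were chosen with earlier results of these data known. Libraries left out by name were chosen after their values were seen. Named genes are the 5 highest and 5 lowest in mean TPM, the 8 with the lowest p over time, the 2 highest and 2 lowest at each time, the 5 highest and 5 lowest between campaigns, the 6 most variable, and up to 6 called genes of each other list; results of 2 of these genes are not reported here. Rplp0, Rplp1, Rps18, Rps20, Rpl28 and the genes of the interaction were named after their values were seen, as were Rps27l and Rpl22l1 as paralogs. Sequences are GENCODE M21 transcripts of GRCm38, and those of chromosome 18 are not shown. Axolotl data were not used here.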

Additional observations from a re-analysis of the deposited data

Results flagged for a closer look

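In 7 d replicate 3 the ribosomal protein genes held 5.34% of counts, the highest of the 6 libraries at 7 d, where its gap to the next was 0.668 of the whole range. Of 37 such values examined at 7 d, 1 stood out, and chance alone marks about 1 in 20.

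The time course differed between the campaigns for 16 of the 75 genes by edgeR's interaction test (Benjamini-Hochberg adjusted p under 0.05). Without 24 h replicate 3 the count was 0 by edgeR, with 8 at an unadjusted p under 0.05.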

How the results depend on the processing

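No paired analysis was possible because the replicate numbers follow accession order and pair no mice. The number of genes called over the time course, 8, was 0 at a threshold of 0.01 (edgeR, with 30 at an unadjusted p under 0.05), 25 with DESeq2 (18.1% of all genes), 1 with limma, 2 with length offsets, 4 without the left-foot libraries, 28 with campaign as a covariate, 4 without the 4 later libraries at 7 d, and 13 without 24 h replicate 3 with campaign as a covariate. It ran from 4 to 21 with each library left out, lowest without 3 h replicate 2 or 3 and highest without 24 h replicate 1. Against 0 h, where edgeR called 0, the exceptions were 2 at 3 h, 1 at 24 h and 1 at 7 d with DESeq2, 39 at 24 h and 2 at 7 d in the later campaign alone (where 24 h is 1 library), 2 at 7 d with campaign and length offsets, 3 at 7 d without 24 h replicate 3 with campaign as a covariate, and 1 at 3 h without the 4 later libraries at 7 d. With each library left out the counts were 0 to 2 at 3 h, 0 to 5 at 24 h, 0 to 2 at 7 d and 0 at the other times. Between campaigns, the 34 genes higher in the later libraries became 20 with limma and 15 without 24 h replicate 3 with length offsets. They were 26 to 37, and all genes called 34 to 46, with each library left out. The interaction count of 16 became 1 at a threshold of 0.01, 5 with length offsets, 37 without the left-foot libraries, and 0 without 24 h replicate 3. The ratio of the highest to the lowest time mean of the summed level, 1.35, was 1.46 in the share of counts, 1.29 in the earlier campaign and 1.85 in the later, and 1.21 to 1.51 with each library left out. The count of genes highest at 24 h, 36, was 5 without 24 h replicate 3. The causes were not tested.

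Single genes that turned direction were uncalled before and after. With campaign as a covariate, Rpl13 was 0.13 at 3 h, Rpl21 0.052 and Rpl8 0.064 at 24 h. With length offsets added, Rps28 was -0.0068 at 12 h and Rpl21 0.045 at 24 h. With campaign and without 24 h replicate 3, Rpl13 was 0.067 at 3 h and Rps21 -0.21 at 24 h. In the later campaign alone, Rpl19 was 0.035 at 6 h, Rpl21 0.28 and Rpl8 0.34 at 24 h, and Rpl37 -0.017 and Rps28 -0.067 at 3 d. With each library left out, Rpl13 at 6 h ran from -0.53 to 0.040 (without 0 h replicate 1), and at 24 h Rpl21 from -0.45 to 0.082 and Rpl8 from -0.27 to 0.11, both highest without 24 h replicate 1 and lowest without 24 h replicate 3. Without the 4 later libraries at 7 d, Rpl29 was 0.0044 and Rplp2 -0.61 at 7 d. Depth limits the low rows most, Rps27 and the Rpl24 row.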
